A study of Drosophila melanogaster with 2 samples.

Results

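The yolk protein genes Yp1, Yp2 and Yp3, the larval serum protein genes Lsp1alpha, Lsp1beta, Lsp1gamma and Lsp2, and the fat body protein genes Fbp1 and Fbp2 were examined for dBigH1, the linker histone H1 variant of the early Drosophila embryo. They were chosen by exact match of the gene symbol, and all 9 were found among the 15627 genes of the deposited table. The data were 1 library of chromatin precipitated with an antibody against dBigH1 and 1 library of input DNA made with no antibody. Both came from w1118 Drosophila melanogaster embryos, a laboratory stock, collected in the first 0 to 2 h after fertilization. Whole embryos were used, so each value averages over all their nuclei, and the labels give neither the sex of the embryos nor whether both libraries came from one collection.

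Linker histones sit on the DNA where it enters and leaves the nucleosome and help to compact chromatin. dBigH1 holds this place in the oocyte and early embryo before the somatic H1 takes over as the zygotic genome is switched on. Yolk and larval serum protein genes code for proteins that are secreted in bulk and stored, and the fat body protein genes are active in the same larval tissue. Yolk proteins, which are related to lipases, are made by the fat body and the follicle cells of adult females and are taken up by the oocyte. Larval serum proteins are hexamerins, relatives of the arthropod hemocyanins, that the larval fat body pours into the blood as an amino acid reserve for metamorphosis. Such genes are known for activity in the larva or the adult female, and not in early embryos.

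The values are RPKM, reads divided by gene length and by the total reads of the library, over the whole gene with its introns. Reads behind them, recovered from the deposited values, were scaled by library totals of 8803832 for the ChIP and 6272887 for the input. The ratio used is log2((ChIP RPKM + 1)/(input RPKM + 1)), which understates differences where RPKM is low. Each 95% interval is exact (Clopper-Pearson for ratios, Poisson for RPKM) and covers counting error only. Copies made by PCR can make the true error larger. Each group had 1 library, so replicate spread is unknown and no test or p-value could be given. The median log2 ratio of all genes was -0.04, with quartiles of -0.23 and 0.14. None of the 9 genes overlaps another gene of the table.

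No shared direction was seen over the 9 genes. Ratios ran from -0.50 at Lsp2 to 0.51 at Lsp1alpha, with a median of 0.08 and an SD between genes of 0.34. By point values, 5 ratios exceeded the all-gene median and 4 fell short of it. Pooled over the 9 genes, 857 ChIP and 593 input reads gave a log2 ratio of reads of 0.04 (interval -0.11 to 0.20). This range holds the ratio of all genes pooled in the same way, 0.005, and also the all-gene median of single-gene ratios. In 2 genes, Lsp1alpha and Lsp1gamma, the interval lay above the median of all genes, against 10.6% of all genes. In 1 gene, Lsp2, it lay below, against 9.59%. These counts are 22.2% and 11.1% of the 9 genes, and with so few genes 1 gene more or less moves the share by 11.1%. No gene reached a 2-fold ratio, a log2 ratio of 1 or more (0.787% of all genes) or of -1 or less (1.17%).

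**Figure D1:**
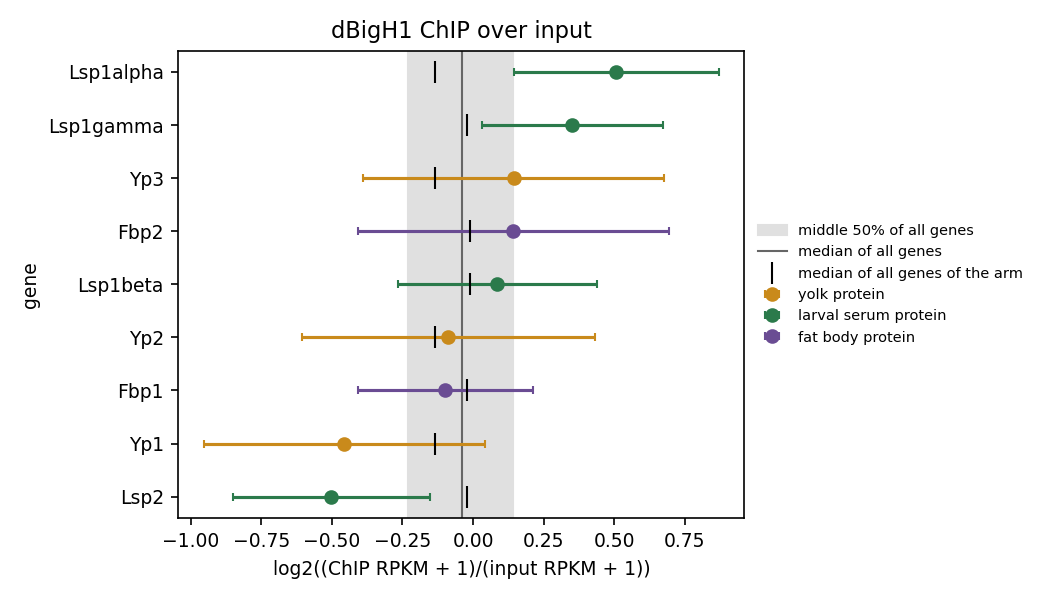
dBigH1 ChIP over input for each gene, with the log2 ratio of RPKM plus 1 on the x axis and the genes in order of ratio on the y axis. Points are genes coloured by family, bars are 95% counting intervals, the grey band is the middle 50% of all genes, the grey line their median (-0.04) and black ticks the median of each gene's chromosome arm. The intervals of Lsp1alpha and Lsp1gamma lie right of the line, that of Lsp2 lies left of it and the other 6 cross it.

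The yolk protein genes were thinly covered in both libraries. Yp1 (FBgn0004045), at dm3 X 9947885 to 9949531 on the plus strand, had 41 ChIP and 44 input reads, or 2.83 RPKM (2.03 to 3.84) and 4.26 RPKM (3.09 to 5.72). Yp2 (FBgn0005391), at X 9945049 to 9946669 on the minus strand, had 44 and 34 reads, or 3.08 RPKM (2.24 to 4.14) and 3.34 RPKM (2.32 to 4.67). Yp3 (FBgn0004047), at X 13653578 to 13655200 on the plus strand, had 45 and 28 reads, or 3.15 RPKM (2.30 to 4.21) and 2.75 RPKM (1.83 to 3.97). All 3 genes lay below the X chromosome medians of 4.62 ChIP RPKM and 5.06 input RPKM. By input, the order was Yp1, Yp2, Yp3 from high to low with overlapping intervals. In the ChIP the levels of the 3 genes were closer still.

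Against all 2382 genes of the X, input RPKM stood at percentile 23.2 for Yp1, 7.47 for Yp2 and 3.48 for Yp3. For ChIP RPKM, the percentiles on the X were 6.17, 9.36 and 10.3. Low density was therefore common to the precipitated and the unprecipitated DNA, and only at Yp1 was the ChIP lower in rank than the input by more than a few percentiles.

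The resulting log2 ratios were -0.46 (interval -0.95 to 0.04) for Yp1, -0.09 (-0.61 to 0.43) for Yp2 and 0.15 (-0.39 to 0.68) for Yp3. Every interval held both the all-gene median and the X median of -0.14. Yp1 and Yp2 are divergent neighbours whose starts are separated by 1215 bp. The ratio of Yp1 was lower than that of Yp2 by 0.47 on the log2 scale of reads, and the interval of this difference ran from -1.43 to 0.48. The 3 genes pooled, with 130 ChIP and 106 input reads, gave a log2 ratio of reads of -0.19 (-0.58 to 0.19). At this depth neither a difference between yolk protein genes nor a departure of the family from the typical gene was detectable.

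**Figure D2:**
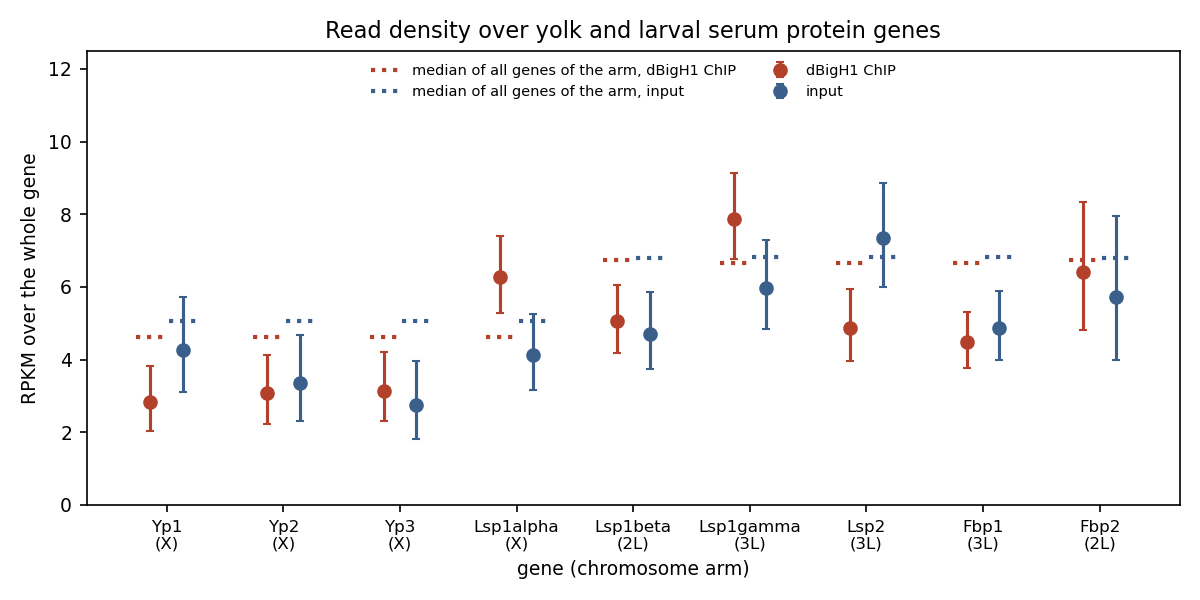
Read density of each gene in both libraries, with RPKM over the whole gene on the y axis and the genes with their chromosome arms on the x axis. Red points are the dBigH1 ChIP and blue points the input, bars are 95% Poisson intervals, and dotted lines are the medians of all genes of the same arm. Yp1, Yp2 and Yp3 lie below both dotted lines, Lsp1alpha and Lsp1gamma lie above for ChIP and below for input, and Lsp2 shows the opposite.

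The larval serum protein genes differed among themselves more than the yolk protein genes did in point values, with Lsp1alpha and Lsp1gamma high and Lsp2 low. Lsp1alpha, Lsp1beta and Lsp1gamma code for the 3 subunits of the serum protein LSP-1, whereas Lsp2 codes for the single subunit of LSP-2.

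Lsp1alpha (FBgn0002562), at X 12384416 to 12386933 on the plus strand, had 139 ChIP and 65 input reads. Its ChIP density was 6.27 RPKM (5.27 to 7.40) and its input density 4.12 RPKM (3.18 to 5.25). On the X, these were percentiles 91.4 and 19.3. The gene was thus high in the ChIP and low in the input, and the intervals of RPKM did not overlap. Its log2 ratio of 0.51 (0.15 to 0.87) stood at percentile 95.6 among all genes and 96.6 on the X.

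Lsp1gamma (FBgn0002564), at 3L 66430 to 68995 on the plus strand near the end of the arm, had 178 ChIP and 96 input reads. Its density was 7.88 RPKM (6.76 to 9.13) in the ChIP, the highest of the 9 genes, and 5.96 RPKM (4.83 to 7.28) in the input. These were percentiles 80.5 and 26.3 on 3L. The log2 ratio was 0.35 (0.03 to 0.67), at percentile 90.9 among all genes and 91.4 on 3L. The lower bound cleared the median of all genes by little.

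Lsp1beta (FBgn0002563), at 2L 898644 to 901316 on the plus strand, had 119 ChIP and 79 input reads. With 5.06 RPKM (4.19 to 6.05) and 4.71 RPKM (3.73 to 5.87), it was low in both libraries, at percentiles 12.7 and 7.37 on 2L. Its log2 ratio was 0.08 (-0.27 to 0.44), an interval that holds the all-gene median.

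Lsp2 (FBgn0002565), at 3L 12122493 to 12124796 on the plus strand, had 99 ChIP and 106 input reads. Its ChIP density of 4.88 RPKM (3.97 to 5.94) was at percentile 9.41 on 3L, and its input density of 7.33 RPKM (6.005 to 8.871) at percentile 65.5. This is the reverse of the Lsp1alpha pattern, low in the ChIP and moderately high in the input, again with RPKM intervals that did not overlap. The log2 ratio was -0.50 (-0.85 to -0.15), at percentile 7.22 among all genes.

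Pairs of related genes were compared directly as the difference of their log2 read ratios, which depends neither on library scaling nor on the added 1 RPKM. These pairs were not among the planned comparisons. Of 10 such pairs within the yolk protein, larval serum protein and fat body protein families, 3 had an interval that excluded 0, all with Lsp2 as the lower gene. Lsp1alpha exceeded Lsp2 by 1.19 (0.59 to 1.81), a 2.28-fold difference. Lsp1gamma exceeded Lsp2 by 0.99 (0.43 to 1.55), or 1.98-fold, and Lsp1beta by 0.69 (0.09 to 1.29). At the 99.5% level, which holds 95% jointly over the 10 pairs, 2 remained, with 0.34 to 2.06 for Lsp1alpha and 0.20 to 1.78 for Lsp1gamma.

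Within the LSP-1 trio no pair separated. Lsp1alpha minus Lsp1beta was 0.50 (-0.11 to 1.13), Lsp1alpha minus Lsp1gamma 0.21 (-0.37 to 0.79) and Lsp1beta minus Lsp1gamma -0.30 (-0.87 to 0.27). These widths still allow a difference of up to 1.13 between Lsp1alpha and Lsp1beta. The trio pooled gave 0.37 (0.14 to 0.61) from 436 ChIP and 240 input reads. With Lsp2 added the 4 genes gave 0.14 (-0.06 to 0.34). The trio exceeded the pooled yolk protein genes by 0.57 (0.11 to 1.02), and all 4 larval serum protein genes exceeded them by 0.33 (-0.10 to 0.77). The trio was set apart after the values of its genes were known, so its pooled values describe these libraries and add no support.

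**Figure D3:**
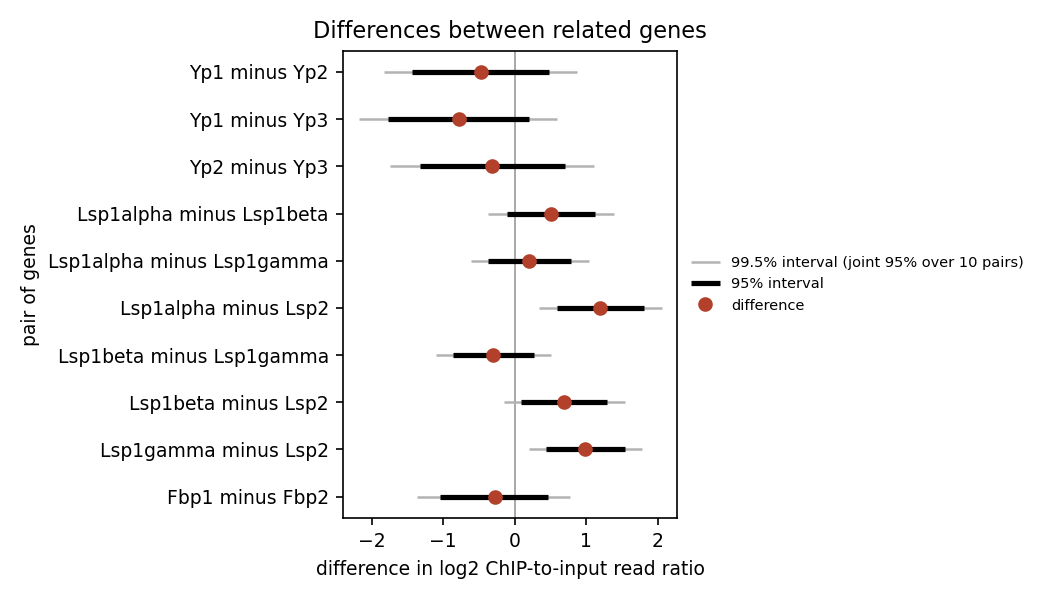
Differences between related genes, with the difference in log2 ChIP-to-input read ratio on the x axis and the 10 pairs on the y axis. Points are differences, black bars 95% intervals and grey bars 99.5% intervals, and the vertical line is at 0. The grey bars of Lsp1alpha minus Lsp2 and Lsp1gamma minus Lsp2 lie right of 0, and all others cross it.

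Neither fat body protein gene had a ratio that departed from the all-gene median beyond counting error. Fbp1 codes for the receptor through which the fat body takes larval serum proteins back up before metamorphosis. Fbp1 (FBgn0000639), at 3L 14087689 to 14091153 on the minus strand, is the longest of the 9 genes at 3465 bp and had 137 ChIP and 106 input reads. Its densities of 4.49 RPKM (3.77 to 5.31) and 4.88 RPKM (3.99 to 5.90) were at percentiles 5.71 and 7.87 on 3L, low in both libraries. The log2 ratio was -0.10 (-0.41 to 0.21), and the interval of 0.62 from end to end was the narrowest of the 9.

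Fbp2, a relative of alcohol dehydrogenase made by the late larval fat body, is the shortest at 976 bp. Fbp2 (FBgn0000640), at 2L 9426860 to 9427835 on the plus strand, had 55 ChIP and 35 input reads, or 6.40 RPKM (4.82 to 8.33) and 5.72 RPKM (3.98 to 7.95). Its log2 ratio was 0.14 (-0.41 to 0.69), with the widest interval, 1.10. The difference of Fbp1 from Fbp2 was -0.28 (-1.04 to 0.47), and together they gave -0.04 (-0.36 to 0.28).

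What most of the 9 genes shared was low read density and not the ratio. Input RPKM was below the median of all genes, 6.51, in 8 of 9 (Lsp2 was the exception), and ChIP RPKM was below its median of 6.38 in 7 of 9 (Lsp1gamma and Fbp2 were the exceptions). Part of this goes with the X, which holds 4 of the 9 genes and has lower medians in both libraries than 2L (6.73 and 6.79 RPKM) and 3L (6.66 and 6.83 RPKM). Against their own X medians, 4 of 4 X-linked genes were still low in the input and 3 of 4 in the ChIP. The genes with a symbol nearest to the middle of the 9 on both log2(RPKM + 1) scales, over the 2 libraries, were CG42264, CG6488 and Fs(2)Ket, at distances of 0.0024, 0.0045 and 0.0053.

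Chromosome arm changed no call. Relative to the median of its own arm, Lsp1alpha was higher by 0.64 and Lsp1gamma by 0.37, Lsp2 differed by -0.48, and the intervals of the other 6 genes held their arm's median. The X-linked genes pooled gave 0.16 (-0.12 to 0.45) and the 5 autosomal genes -0.01 (-0.19 to 0.17). Lsp1alpha held 139 of the 269 ChIP reads of the X-linked genes. By medians the order was the opposite, 0.03 for the X-linked and 0.08 for the autosomal genes. An interval above the all-gene median was found for 4.87% of X-linked genes, Lsp1alpha among them, and one below for 15.9%.

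Surrounding genes were used to ask whether a value belonged to the gene or to its region. All genes reaching within 50 kb of either end were taken whole, without the other genes of the 9, and their reads were pooled. Reads in overlapping neighbours thus count more than once, and long neighbours weigh most. This pooled comparison was added after the data were seen, and the share of all genes that it would call was not computed. Of the 9 genes, 3 differed from their neighbours beyond counting error, the same 3 whose intervals lay past the all-gene median. The pooled neighbours of these 3 were themselves near that median, so the comparison adds little to their rank among all genes. Lsp1alpha had a higher ratio than each of its 10 neighbours, whose pooled ratio was -0.05 (-0.11 to 0.01), and exceeded them by 0.66 (0.22 to 1.11). In the input it was lower than all 10, and in the ChIP higher than 9 of 10. Its adjacent genes were the cuticle protein gene Cpr11A at 931 bp (-0.01, interval -0.35 to 0.33) and CG15730 at 1493 bp (-0.15, -0.55 to 0.24). Both intervals hold the all-gene median. The highest of the 10 neighbours, its centre 6.1 kb away, had 0.45 (-1.21 to 2.16) from 8 ChIP and 4 input reads. With so few reads that neighbour cannot be ranked against Lsp1alpha.

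Lsp1gamma was above all 6 of its neighbours and exceeded their pooled ratio of -0.10 (-0.32 to 0.12) by 0.50 (0.07 to 0.94). The nearest genes on either side, at 11678 and 1855 bp, have no symbol in the table. Their ratios were -0.41 (-0.91 to 0.09) and -0.14 (-0.86 to 0.58). The highest of the 6 neighbours, its centre 4.9 kb away, had 0.28 (-0.23 to 0.80), close to Lsp1gamma. None of the 6 neighbours had an interval above the all-gene median.

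Lsp2 was below all 19 of its neighbours, whose pooled ratio was -0.07 (-0.14 to -0.01), and differed from them by -0.52 (-0.93 to -0.10). In the ChIP, 1 of the 19 neighbours had a lower RPKM, whereas in the input 12 did. Of its adjacent genes, CG11534 at 449 bp had a ratio of -0.48 (-0.90 to -0.07), also below the all-gene median, and CG34241 at 931 bp had -0.37 (-1.14 to 0.42), an interval that holds it. CG11534, with 70 ChIP and 74 input reads, overlaps the next gene. Of the 19 neighbours, 3 had an interval below the all-gene median.

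For the other 6 genes the difference from the pooled neighbours did not exceed counting error. It was -0.51 (-1.17 to 0.14) for Yp1, -0.04 (-0.72 to 0.65) for Yp2, 0.30 (-0.42 to 1.03) for Yp3, 0.19 (-0.23 to 0.63) for Lsp1beta, -0.03 (-0.42 to 0.35) for Fbp1 and 0.10 (-0.54 to 0.76) for Fbp2. Yp1 and Yp2 lie between the chitinase gene Cht6 (0.02, interval -0.07 to 0.11) and CG15312 (0.02, -0.12 to 0.16), both well covered and near 0. Yp3 lies between Rtc1 (-0.45, -0.96 to 0.07) and rdgB, a gene needed in photoreceptors (-0.15, -0.28 to -0.02). Its ratio was above 19 of 20 neighbours, while its RPKM was below all 20 in both libraries. Lsp1beta is flanked by CG15824 (-0.16, -0.36 to 0.04) and a small nuclear RNA gene with 10 ChIP and 9 input reads. The ratio of Lsp1beta was above 14 of 15 neighbours, whose median was -0.27 and pooled ratio -0.09. The exception was CG4341 (0.18, 0.09 to 0.28), a gene of 35306 bp with 1696 ChIP reads that weighs heavily in the pool. Fbp1 stands between CG8100 (0.30, -0.04 to 0.64) and the transcription factor gene Sox21a (-5.7e-05, -0.24 to 0.25). Fbp2 follows CG3759 (0.17, 0.02 to 0.33) and precedes CG42847 (0.27, -0.29 to 0.83).

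**Figure D4:**
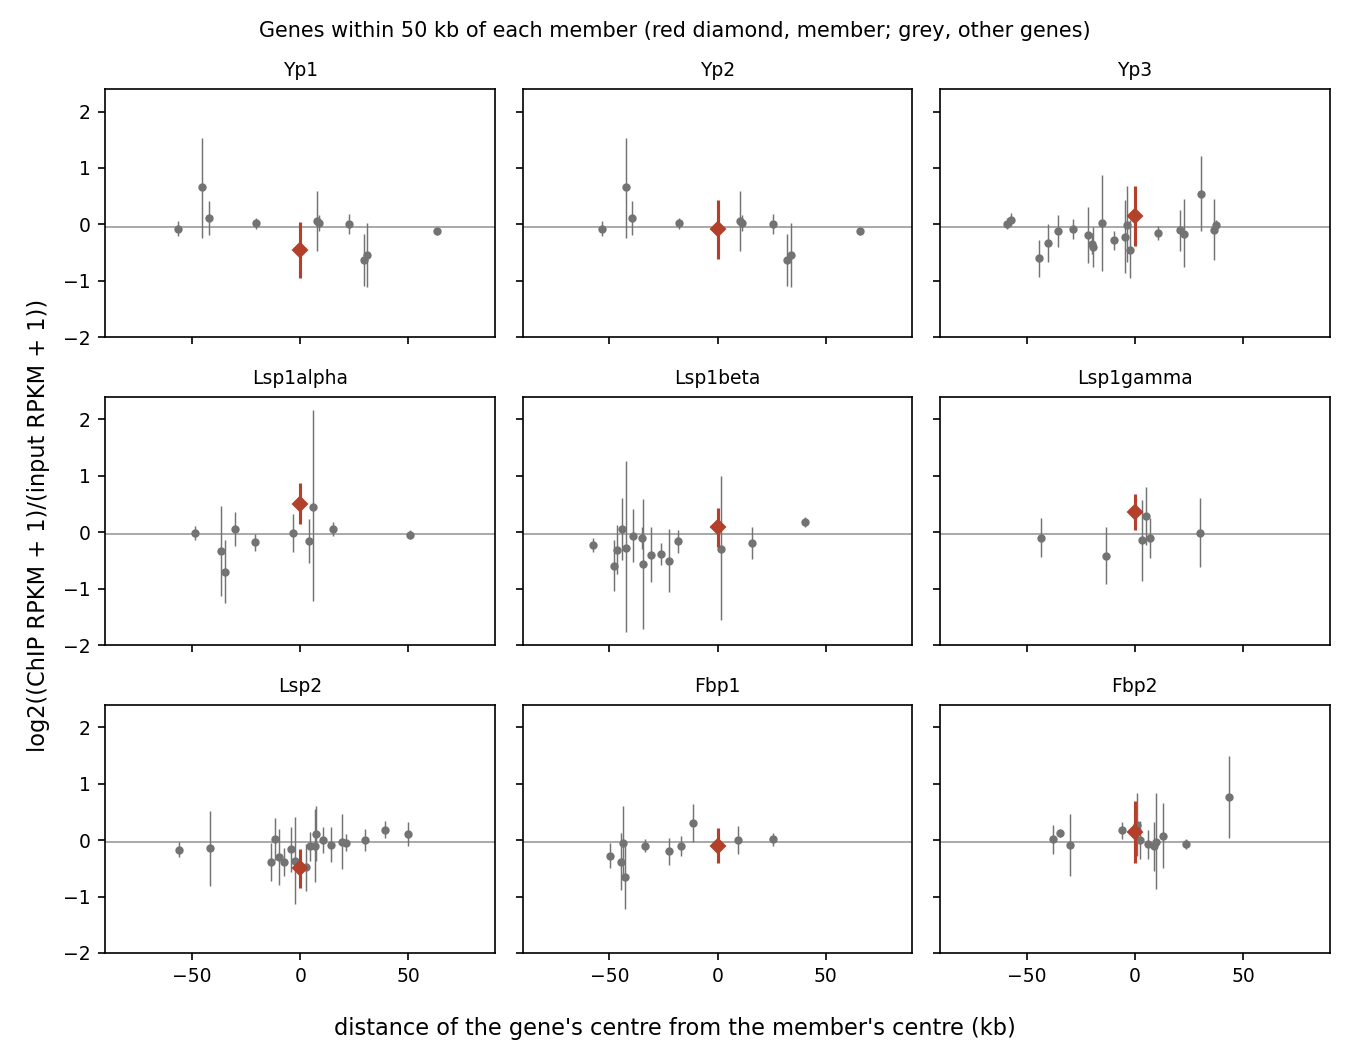
Each panel shows 1 of the 9 genes (red diamond) and the other genes within 50 kb of it (grey points), with distance between gene centres in kb on the x axis and the log2 ratio of RPKM plus 1 on the y axis. Bars are 95% counting intervals and the grey line is the median of all genes, -0.04. Lsp1alpha and Lsp1gamma lie above every neighbour and Lsp2 below every neighbour, with wide bars on short genes.

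Genes that work with the yolk and serum proteins were described as lists beside them. The same backgrounds apply, 10.6% of all genes above and 9.59% below by their intervals, but long genes hold more reads and pass more easily. Of 6 genes of yolk uptake and lipoprotein transport, 4 were above and 0 below, with a median of 0.13. The highest was Rfabg (0.29, interval 0.15 to 0.43, from 881 ChIP and 500 input reads), which codes for the blood lipoprotein apolipophorin. It lies on chromosome 4, where the median of all genes was 0.05 and 30.1% of genes were above. Next came CG15828, now named Apoltp, a lipid transfer particle gene (0.26, 0.15 to 0.38), and the lipoprotein receptor genes LpR1 (0.13, 0.02 to 0.25) and LpR2 (0.12, 0.04 to 0.21). These 4 genes are between 11293 and 41700 bp long. The yolk protein receptor gene yl was as thinly covered as the yolk protein genes, with 2.96 ChIP and 3.03 input RPKM, and had a ratio of -0.02 (-0.28 to 0.23). Mtp, a gene for lipoprotein assembly, was lowest at -0.07 (-0.32 to 0.18).

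Of 8 regulators of yolk protein genes, 0 were above and 1 below, with a median of -0.05. The gene below was srp, a GATA factor of the fat body (-0.17, -0.28 to -0.06). The sex determination factor gene ix was lowest (-0.57, -1.19 to 0.06), her (-0.12) and dsx (0.01) lay on either side of the median and Aef1, a repressor known from fat body enhancers, was highest (0.13, -0.08 to 0.35). dsx, which sets the sex-specific expression of yolk protein genes, had 0.01 (-0.06 to 0.09) from 2625 ChIP and 1853 input reads.

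Of 12 ecdysone and juvenile hormone response genes, 3 were above and 4 below, with a median of -0.04, close to that of all genes. The juvenile hormone receptor gene Met was lowest (-0.61, -0.88 to -0.34), ftz-f1 (-0.06) and Eip75B (-0.03) lay on either side of the median and Eip78C was highest (0.11, 0.03 to 0.19). EcR, the ecdysone receptor gene, had -0.11 (-0.16 to -0.06), and usp, which codes for its partner, -0.46 (-0.78 to -0.13). Of the 4 genes below, 3 are on the X, where 15.9% of genes were below.

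Among the 3 prophenoloxidase genes, relatives of the hexamerins, 0 were above and 1 below. CG42640, now PPO3, had -0.49 (-0.88 to -0.09), CG8193, now PPO2, -0.24 (-0.61 to 0.15), and proPO-A1, now PPO1, 0.01 (-0.32 to 0.34). Adh and Adhr, relatives of Fbp2, share 1 interval and its reads in the table and had 0.08 (-0.20 to 0.36). Of 16 other genes for fat body lipid storage and secreted proteins, 0 were above and 2 below, with a median of 0.01. They ranged from the insulin-like peptide gene Ilp6 (-0.47, -0.74 to -0.19) through the ferritin gene Fer1HCH (0.0034) and the lipid droplet gene Lsd-1 (0.01), on either side of the median, to the transferrin gene Tsf1 (0.20, -0.22 to 0.63).

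Chorion and salivary glue genes, which also code for proteins secreted in bulk by follicle cells and by the larval salivary gland, were set beside the 9 genes. The 9 chorion genes had a median of -0.08, with 0 above and 2 below, from Cp38 (-0.59, -1.13 to -0.05) through Cp7Fa (-0.08) to Cp19 (0.19). Both genes below are among the 5 on the X, where 15.9% of genes were below. The pooled reads gave -0.26 (-0.47 to -0.05). The pooled yolk and larval serum protein genes exceeded them by 0.30 (0.04 to 0.56). With only the 4 chorion genes that overlap no other gene, the difference was 0.05 (-0.42 to 0.53). Intervals of pooled differences cover counting error only and leave out the spread between genes, an SD of 0.34 over the 9. An interval that excludes 0 therefore does not show that the sets differ. The 11 glue genes had a median of 0.18, with 2 above and 1 below, from ng3 (-0.69) through Sgs5 (0.18) to ng1 (0.78), but a pooled ratio of -0.19 (-0.35 to -0.03), opposite in sign. Among the 8 glue genes of at least 500 bp the median was -0.12. Of their 737 ChIP reads, 357 were in Sgs1 (-0.42). The difference of the yolk and larval serum protein genes from the pooled glue genes was 0.23 (0.01 to 0.46) with Sgs1 and -0.06 (-0.34 to 0.22) without it, so its direction rested on Sgs1. Both lists hold overlapping genes, whose reads can count more than once. With only the 6 glue genes that overlap no other gene, Sgs1 among them, the difference was 0.28 (0.05 to 0.52).

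**Figure D5:**
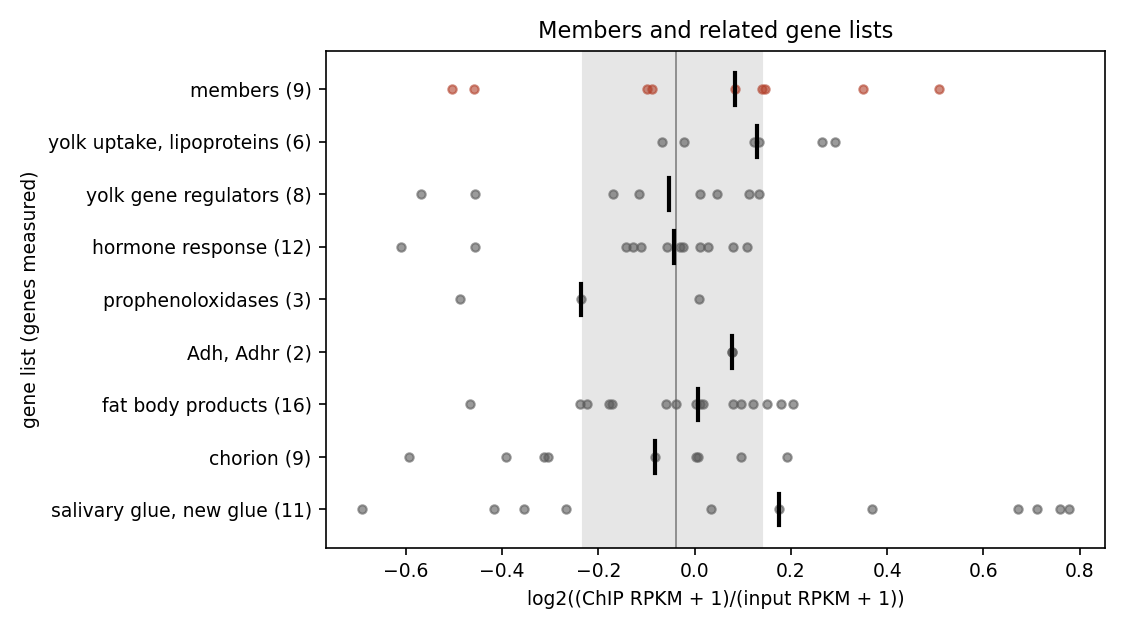
Log2 ratio of RPKM plus 1 (x axis) for the yolk and larval serum protein genes (members, red) and 8 related or compared gene lists (grey), with the number of genes measured in brackets. Each point is a gene, black ticks are list medians, the grey band is the middle 50% of all genes and the grey line their median. The 9 genes span -0.50 to 0.51 around a median of 0.08, and the yolk uptake genes lie between -0.07 and 0.29.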

How the data were processed

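Libraries were built from 3.5 ng of DNA, per the labels' protocols, amplified by 18 PCR cycles and sequenced as single reads of 50 nt. Per the submitters' processing notes, CASAVA 1.9, Bowtie2, FastQC 0.10, R 2.15 and the build dm3 were used; their roles, the annotation, the counting tool and the handling of duplicate or multiply mapped reads were not given in the sources used here. Related genes could share reads, which was not tested. The authors deposited log2 RPKM per gene and library and a score whose header reads MAnorm log2 fold change (SD 1.00 over all genes), used here only as an alternative. Subtracting 1 after undoing the log gave whole reads for 100% of values within 1e-05 reads.

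Ratios use a pseudocount of 1 RPKM; pooled ratios and differences between genes use reads with none, the latter with exact conditional odds-ratio intervals. Pooled intervals are Clopper-Pearson. Recovery and intervals were tested on simulated Poisson reads with no pseudocount, so copies made by PCR and intervals with the pseudocount were not tested. Genes named are the 9, their nearest neighbours, and the lowest, highest and middle gene of each list. All genes of lists of 6 or fewer and the 3 genes nearest in level are also named. EcR, srp, usp, Sgs1 and CG4341 were added after their values were seen. The members and lists were chosen with earlier results of these data known. List genes were matched by symbol, or by current symbol in a RefSeq table of Release 6 through Entrez numbers, used for names only. Analyses ran in Python 3.11.15 with scipy 1.17.1 (intervals), statsmodels 0.14.6 (lowess), pandas 2.3.3, numpy 2.4.6 and matplotlib 3.10.9.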

Additional observations from a re-analysis of the deposited data

How the results depend on the processing

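Intervals of single genes spanned 0.62 to 1.10 on the log2 scale from counting alone, and replicate spread is unknown. Pseudocounts of 0, 0.1 or 5 RPKM and a lowess correction (span 0.3) left all 9 genes on their side of the all-gene median. The intervals of Lsp1alpha, Lsp1gamma and Lsp2 also stayed past it. Centring on the median of all genes shifts ratios and median alike, so it could change neither. Other pseudocounts use the same reads and cannot change the sign of a ratio, so they are a weak check. Over all these settings, Lsp1alpha ranged from 0.31 to 0.61, Lsp1gamma from 0.23 to 0.40 and Lsp2 from -0.59 to -0.32. The median of the 9 genes ranged from -0.0023, with 1 gene left out or with Yp3 removed by a filter on input of 3.26 RPKM, to 0.16 after the lowess correction. Genes of at least 500 bp turned the glue list median from 0.18 to -0.12. In windows of 20 and 200 kb, added after the data were seen, the differences from pooled neighbours of Lsp1alpha (0.66 and 0.78), Lsp1gamma (0.51 and 0.47) and Lsp2 (-0.44 and -0.63) kept their sign and intervals that exclude 0. Checks of the list comparisons were also added later. Without overlapping genes, the counting interval of the chorion difference came to hold 0 (difference 0.0542). That of the glue difference still excluded 0 (0.28, 0.05 to 0.52). Without Sgs1, the interval of the glue difference came to hold 0 (-0.0613). On the score the authors deposited, whose scale differs, Lsp1alpha stood at 1.58, Lsp1gamma at 1.27 and Lsp2 at -1.53. Their percentiles among all genes were 95.5, 92.5 and 5.20, against 95.6, 90.9 and 7.22 on the main scale. The medians of the yolk uptake list at 0.50 and of the fat body list at 0.12 were outside their intervals on the main scale. As the units differ, no conclusion is drawn from that. Counts of intervals could not be had from the score. No paired analysis was possible because each group had 1 library, so no replicate could be left out either.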
